A study of Mus musculus with 3 samples.

Results

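The homeobox families of jaw and trunk are 83 protein-coding genes of 21887 in the RefSeq annotation of GRCm38.p6, chosen by symbol alone: the Hox genes of the 4 clusters (39 genes), and the Dlx, Msx, Barx, Pitx, Prrx, Lhx, Irx, Meis and Pbx families, the family of Six2, and Pax9 (44 genes). The Dlx, Msx, Barx, Pitx and Prrx families, Pax9, Lhx6 and Lhx8 are called the jaw and tooth genes here (19 genes), and the remaining 25 are called the other members. Whole families were taken, so the jaw and tooth genes include Msx3 and Pitx3, described below as genes of other tissues. The assay was ATAC-seq, which reads accessible DNA from the cuts of the Tn5 transposase, on collagenase-dissociated cells from the apical part (the root end) of the first molars of C57BL/6 mice at postnatal day 7.5. The libraries were 1 labelled Gli1-CreER;Arid1a fl/fl and 2 labelled Arid1a fl/fl, each from 5000 cells. All of the mice carried the floxed Arid1a alleles and were given tamoxifen at postnatal day 3.5, and Gli1-CreER can delete Arid1a, a SWI/SNF subunit, only where Gli1 is expressed, so the digest may hold cells of both states. The values analysed are 13500 windows of 201 bp pooled over the libraries, with no value per library and no read depth, and 5753 sites of the binding motif of the zinc finger factor Plagl1 found by sequence in those windows. Mutant and control were therefore not compared, and the values carry no replicate error. The rule by which the regions entered the list is also unknown here, so lack of a window does not show that a gene was closed.

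Homeobox proteins bind DNA through a conserved homeodomain and set the identity of body regions. Pax9, counted with them here, is a paired-box factor without a homeodomain. Hox genes lie side by side in clusters, and their order along the chromosome follows the order of their expression along the trunk and limbs. The mesenchyme of the first pharyngeal arch, which builds the jaws and the teeth, comes from cranial neural crest that is known not to express Hox genes, and it is patterned instead by Dlx, Msx, Barx, Pitx, Prrx and Lhx genes. Meis and Pbx proteins are partners of Hox proteins on DNA and also act where no Hox gene is expressed.

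Of the 83 genes, 28 had a window at a gene end, inside the gene or within 10 kb of it, and together they held 37 windows, each assigned to a single member. A window counted as at a gene end when its midpoint lay within 1 kb of either end. No Hox gene had such a window, 0 of 39, which allows a share of up to 7.69%, against 9 of 19 jaw and tooth genes (47.4%, exact 95% interval 24.4 to 71.1) and 10 of 25 other members (40%, 21.1 to 61.3). Among all protein-coding genes the share was 46.6%. When windows inside the gene and within 10 kb were added, the counts were 0 of 39 Hox genes, 14 of 19 jaw and tooth genes (73.7%, 48.8 to 90.9) and 14 of 25 other members (56%, 34.9 to 75.6), with 59.5% of all protein-coding genes. Either limit for Hox genes thus lay below the share of all genes under both rules. For the jaw and tooth genes and the other members the interval held that share. These intervals cover counting error only and treat genes as independent, whereas Hox genes are neighbours in 4 clusters, so the Hox count rests on 4 stretches of chromosome.

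**Figure D1:**
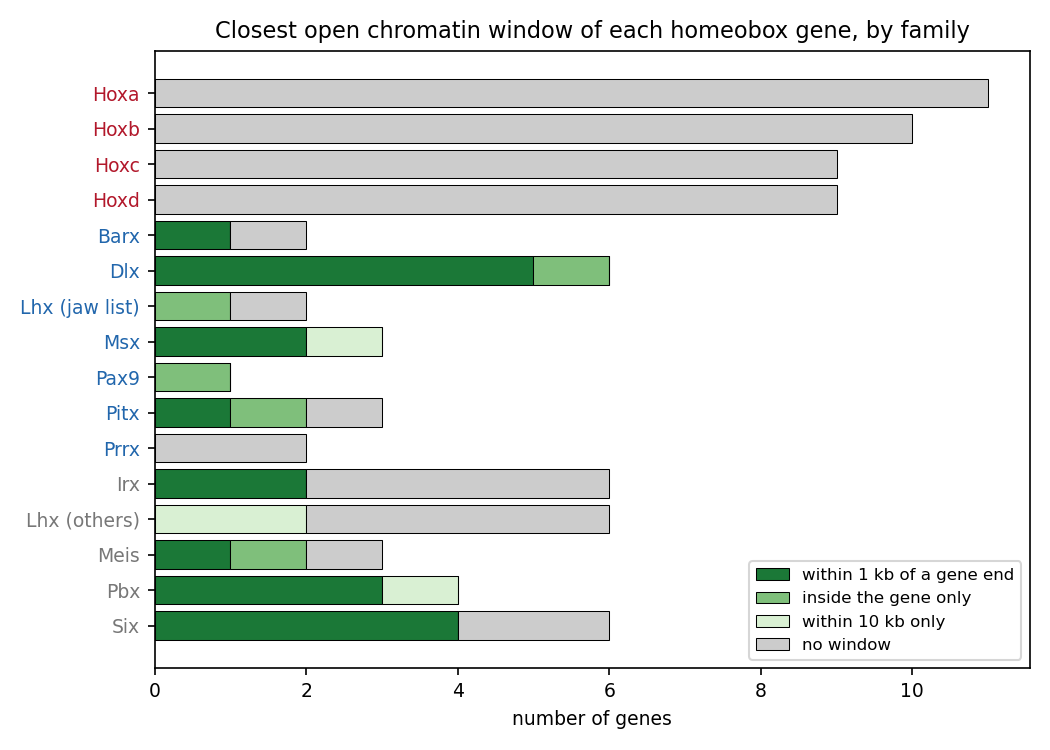
Number of genes in each family by the position of the closest window: within 1 kb of a gene end, inside the gene only, within 10 kb only, or none. Family names are red for Hox, blue for jaw and tooth genes and grey for other members. All 39 genes of the 4 Hox families fall under no window, while all 6 Dlx genes have a window at an end or inside. Of all protein-coding genes, 53.5% have a window at an end or inside.

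The 4 Hox clusters held 0 windows over their whole summed length of 492 kb, including the spaces between genes. The Hoxa cluster, 11 genes over 105.5 kb on chromosome 6 (52155367 to 52260880), lay between a window 142.8 kb to its left, near the adaptor gene Skap2, and a window 45.3 kb to its right, near the homeobox gene Evx1. The Hoxb cluster, 10 genes over 173.9 kb on chromosome 11 (96194316 to 96368254), had its nearest windows 118.5 kb to the left, near Atp5g1, and 409.4 kb to the right, near Snx11. The Hoxc cluster, 9 genes over 115.7 kb on chromosome 15 (102921131 to 103036856), had them 198.97 kb and 126.5 kb away, near Calcoco1 and the repair glycosylase gene Smug1. The Hoxd cluster, 9 genes over 96.9 kb on chromosome 2 (74668225 to 74765142), had them 89.4 kb and 60.9 kb away, near Lnpk and Mtx2.

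The window-free stretches around the clusters were long and rich in genes. Each spans a whole Hox cluster without a window, so its high gene count follows from that and is no further difference. They measured 293.6 kb (Hoxa), 701.9 kb (Hoxb), 441.2 kb (Hoxc) and 247.2 kb (Hoxd), against a median of 55.6 kb over the 13479 stretches between neighbouring windows. Stretches at least as long made up 13.6% (Hoxa), 5.77% (Hoxb), 9.38% (Hoxc) and 15.7% (Hoxd) of all. The clusters alone measured 96.9 to 173.9 kb. Stretch lengths above the median therefore also follow from the lack of a window in each cluster and are no further difference. The stretches of the 4 clusters held 11, 13, 9 and 10 whole protein-coding genes in that order of clusters. Only 164 stretches (1.22%) held 9 or more, and 60.4% held none. In the Hoxb stretch the additional genes were Calcoco2, Ttll6 and Skap1, and in the Hoxd stretch it was Evx2, a homeobox gene beside Hoxd13.

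**Figure D2:**
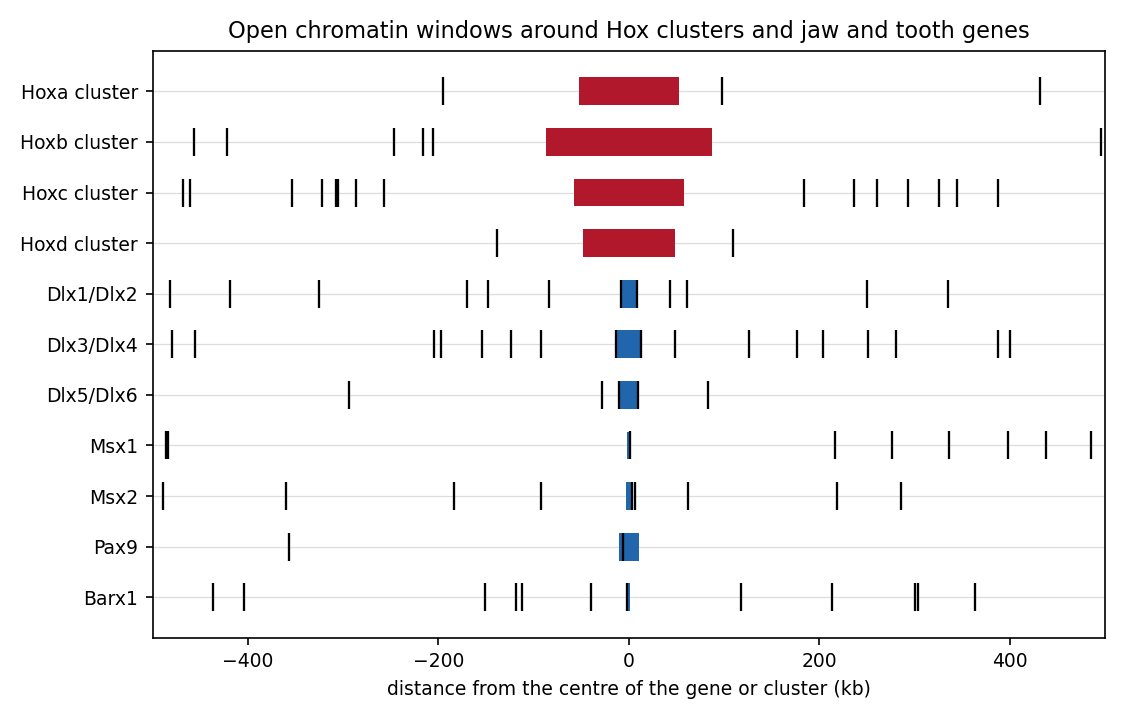
Windows (black ticks) by distance in kb from the centre of each Hox cluster (red bars, drawn to length) and of 3 Dlx pairs and 4 single jaw and tooth genes (blue bars). No tick falls on a red bar, and each blue bar has a tick on it or at its edge, the blue loci having been picked from genes with such a window. Msx3 and the jaw and tooth genes with no window within 10 kb (Lhx8, Prrx1, Prrx2, Pitx1 and Barx2) are not drawn.

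The distances restate the same lack of windows and are no separate result. From a Hox gene to the nearest window midpoint the median distance was 126488 bp, with a range of 45294 bp (Hoxa13, which acts in digits and genital bud) to 289973 bp (Hoxb1, a hindbrain gene). The median was 8 bp for the jaw and tooth genes, 4882 bp for the other members and 162 bp for all protein-coding genes. The lower quartile of the Hox genes, 96527 bp, lay above the upper quartile of all protein-coding genes, 68823.5 bp. Of all protein-coding genes, 29% lay at least as far from a window as Hoxa13, the closest Hox gene, so a distance of that size is common genome-wide. Of the members that are not Hox genes, Lhx8, Prrx1, Pitx1, Barx2, Meis2, Irx1, Irx2, Irx4, Lhx2, Lhx4, Lhx5 and Six6 also lay that far away, up to 1320371 bp for Irx1. Close to the 1 kb limit, the last windows inside it were those of Six4 (604 bp) and Meis1 (618 bp), and the first beyond it those of Meis3 (1281 bp) and Dlx1 (1548 bp). At the 10 kb limit, Lhx9 (7886 bp) and Msx3 (9603 bp) lay just inside and Prrx2 (16869 bp) and Lhx3 (29076 bp) outside.

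**Figure D3:**
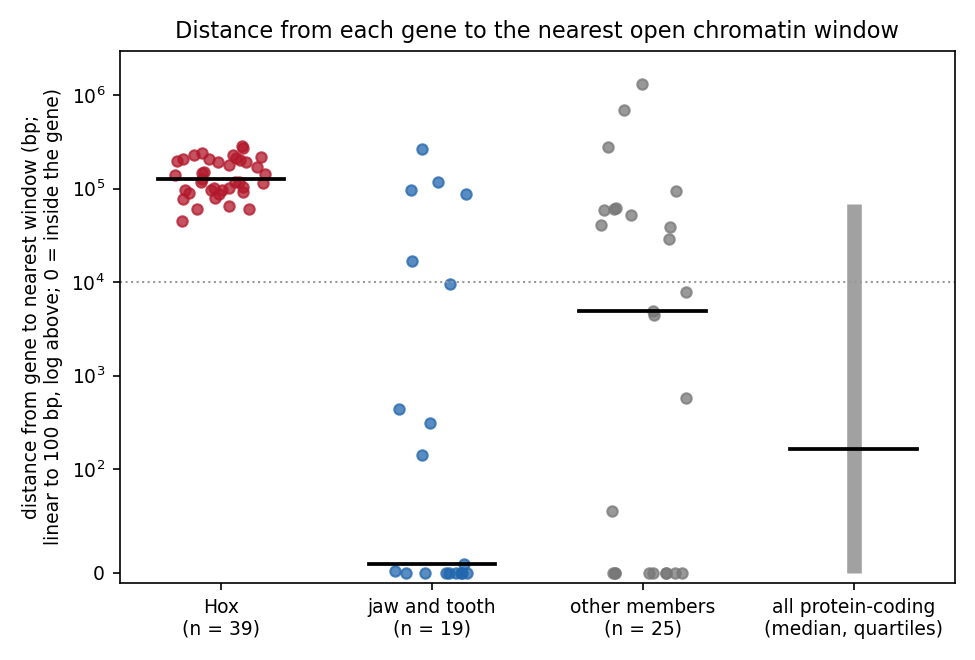
Distance in bp from each gene to the midpoint of its nearest window, with 1 point per gene and black bars at the medians, on an axis that is linear to 100 bp and logarithmic above. The grey bar spans the quartiles of all protein-coding genes and the dotted line marks 10 kb. The 39 Hox genes sit together above 45 kb, whereas the jaw and tooth genes run from 0 to 266452 bp.

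Dlx genes, whose nested expression gives the upper and the lower jaw their identity, all had a window at an end or inside. Of all protein-coding genes, 53.5% had such a window. The Dlx genes lie as 3 pairs of neighbours, and each pair had 1 window at or in each of its genes. For Dlx1 and Dlx2 on chromosome 2 the windows were at 71529561 to 71529761, inside Dlx1 and 1548 bp from its end, and at 71546408 to 71546608, 246 bp from the end of Dlx2. Dlx3, which takes part in enamel and dentine formation, had its window on chromosome 11 at 95120015 to 95120215, 2 bp outside the gene end. Its partner Dlx4 had it at 95145858 to 95146058, 336 bp inside. Dlx5 and Dlx6, the lower jaw pair on chromosome 6, had windows 43 bp and 442 bp from a gene end, at 6881925 to 6882125 and at 6862792 to 6862992. Midpoints within a pair were 16.8 kb (Dlx1 and Dlx2), 25.8 kb (Dlx3 and Dlx4) and 19.1 kb (Dlx5 and Dlx6) apart.

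Msx genes, targets of BMP signalling in tooth mesenchyme, each had a window at an end or within 10 kb. With windows inside the gene also counted, 59.5% of all protein-coding genes had one. Msx1, without which mouse teeth stop at the bud stage, had its window on chromosome 5 at 37824161 to 37824361, 324 bp inside the gene. Msx2 had a pair of windows on chromosome 13, at 53472688 to 53472888 with the midpoint 8 bp from the gene end, and at 53476035 to 53476235, 3355 bp away. The outer window had the highest GC content of any member window, 77.1%. Msx3, a gene of the dorsal neural tube, had only a window 9603 bp away on chromosome 7 (140036454 to 140036654), and that window lay inside the neighbouring gene Tubgcp2.

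Of the 19 jaw and tooth genes, 5 (26.3%) had no window at an end, inside or within 10 kb, against 40.5% of all protein-coding genes. These 5 lie outside the Dlx and Msx families. Barx1, which marks the molar-forming part of the arch, had a window on chromosome 13 at 48662627 to 48662827, 309 bp outside the gene. Pax9, a paired-box factor needed in tooth mesenchyme, had 1 on chromosome 12 at 56695630 to 56695830, inside the gene. Pitx3, a lens and midbrain gene, had 1 at 46148365 to 46148565 on chromosome 19, 140 bp outside the gene, and another 4138 bp away that lay 46 bp from Gbf1. Lhx6, expressed in oral mesenchyme, had 1 inside the gene on chromosome 2, at 36091460 to 36091660. The genes without a window were Lhx8, its close relative in oral mesenchyme, Prrx1 and Prrx2 of craniofacial and limb mesenchyme, Pitx1 of hindlimb and lower jaw, and Barx2.

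Among the other members, Pbx3 and Pbx4 had a window 581 bp and 119 bp from a gene end. The 3 windows within 10 kb of Pbx2 lay in Notch4 or in or beside Agpat1. Meis1 had a window 618 bp from its end and Meis3 had 1 inside, while Meis2 had none within 10 kb. Six2, Six4 and Six5 had a window 224 bp, 604 bp and 60 bp from an end, while Six3 and Six6, genes of eye and forebrain, had none. Irx3 and Irx5 had a window 37 bp and 41 bp from an end, and Irx1, Irx2, Irx4 and Irx6 had none. No Lhx gene outside the jaw and tooth list had a window at an end: those within 10 kb of Lhx1 and Lhx9 lay in the neighbouring genes Aatf and 2310009B15Rik, and Lhx2, Lhx3, Lhx4 and Lhx5 had none.

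RefSeq start sites were at hand for 52 of the 83 genes (22 Hox, 12 jaw and tooth, 18 other members) and place the windows relative to transcription. Of the 12 jaw and tooth genes, 7 had a window midpoint within 1 kb of a start site. Midpoints lay upstream for Barx1 (-309 bp), Pitx3 (-140 bp) and Msx2 (-8 bp), and downstream for Dlx1 (216 bp), Dlx2 (246 bp), Pax9 (259 bp) and Msx1 (324 bp). Pax9, Dlx1 and Meis3 are thus counted as inside genes only because the annotated gene end lies further out than this start site. Counting start sites as well as gene ends gave 0 of 39 Hox genes, 11 of 19 jaw and tooth genes (57.9%) and 50.7% of all protein-coding genes. A window lay within 1 kb of 0 of 24 Hox start sites and 7 of 14 jaw and tooth start sites. Both Hox counts were fixed by the distances above, at least 45294 bp for every Hox gene. The share over all 21263 start sites of protein-coding genes was 48.6%. Most of the Hox start sites were from the Hoxa and Hoxd clusters, and only those of Hoxb1, Hoxb4, Hoxb8 and Hoxc4 were from the others.

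The number of CpG dinucleotides before a start site went with the presence of a window across the genome. Hox promoters had no window at any CpG count. Those Hox counts follow from the lack of any window within 45 kb of a Hox gene and are no separate result. In the 250 bases before the start site, 24 Hox promoters held a median of 12.5 CpG (2 to 35), 14 jaw and tooth promoters 16.5 (4 to 40) and all 21263 promoters of protein-coding genes 10. Over all promoters, a window lay within 1 kb of the start site in 6.71% of those with up to 5 CpG, in 46.2% with 6 to 10, in 74.7% with 11 to 15, in 84.2% with 16 to 20, in 85.9% with 21 to 25 and in 87.6% with 26 or more. Among promoters with at least 16 CpG, a limit chosen after these values were seen, a window was found at 0 of 9 Hox promoters, 6 of 9 jaw and tooth promoters and 1 of 9 other members' promoters, against 85.9% of all 7247. Of the other members the promoter with a window was that of Six2, a gene of craniofacial and kidney mesenchyme, and those without were of Irx2, Irx4, Lhx1, Lhx2, Lhx3, Pbx2 and Six6, with both promoters of Lhx2 counted. So CpG-rich promoters without a window were seen outside the Hox clusters too. The count of 9 Hox promoters comes from the Hoxa and Hoxd clusters alone.

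**Figure D4:**
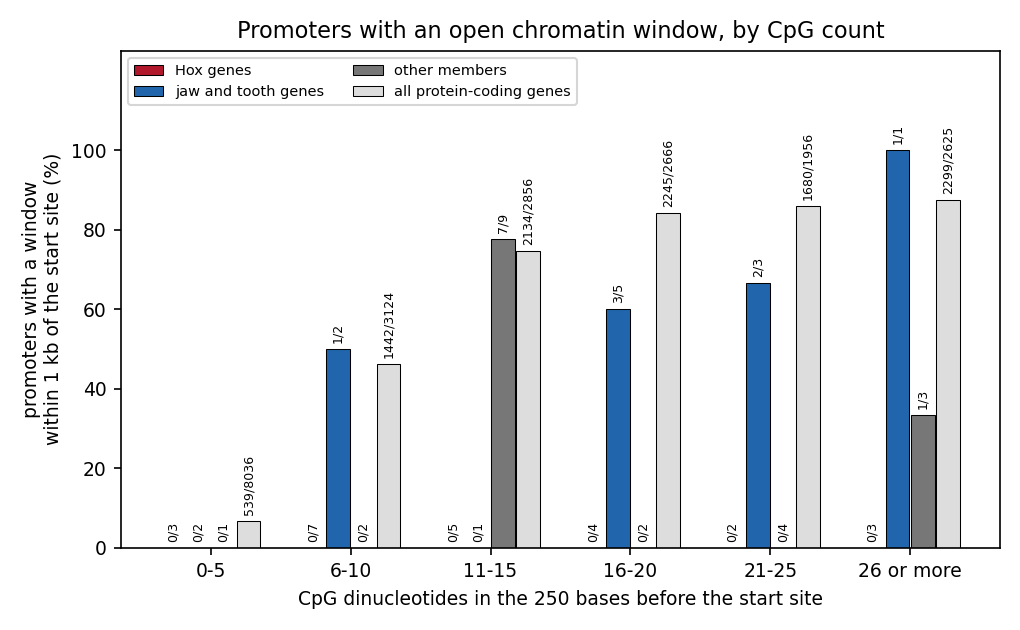
Share of promoters with a window midpoint within 1 kb of the start site, by CpG count in the 250 bases before it, with the number with a window over the number of promoters above each bar. Red is Hox, blue the jaw and tooth genes, dark grey the other members and light grey all protein-coding genes. Hox promoters, most of them from the Hoxa and Hoxd clusters, are at 0 in every group of CpG counts, because no window lay within 45 kb of a Hox gene. The share over all promoters reaches 87.6%.

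The sequences of 3 such Hox promoters and of 3 jaw and tooth promoters with a window nearby are printed as examples. Each jaw and tooth promoter, from the lowest CpG count to the highest, was paired with the Hox promoter closest in CpG count. Only Hox promoters that start at the gene end and were not yet used could be taken. The likeness in CpG count within a pair was thus set by the choice. Hoxb4, with 14 CpG, was as close to Msx2 as Hoxa3 was, Hoxa3 was also the closest to Msx1, and Hoxd1 had as many CpG as Hoxa6, with ties settled by symbol. They are the 250 bases before the start site in RefSeq's GRCm38.p6, 5′ to 3′ on the gene's strand, with CpG dinucleotides in capitals. Hoxa3 had 18 CpG, with its nearest window 93107 bp away, against 16 CpG for Msx2, whose window covered 108 of the 250 bases. Hoxa6 had 24, against 20 for Msx1, whose window lay downstream of the start site. Hoxa13 had 35, against 40 for Barx1, whose window covered 42 bases.
Hoxa3, chr6:52213068-52213317, minus strand: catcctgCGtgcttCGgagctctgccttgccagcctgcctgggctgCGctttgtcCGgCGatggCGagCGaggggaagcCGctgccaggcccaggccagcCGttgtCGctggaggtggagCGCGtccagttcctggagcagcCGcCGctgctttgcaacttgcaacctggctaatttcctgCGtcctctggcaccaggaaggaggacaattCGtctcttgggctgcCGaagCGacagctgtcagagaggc
Msx2, chr13:53472781-53473030, minus strand: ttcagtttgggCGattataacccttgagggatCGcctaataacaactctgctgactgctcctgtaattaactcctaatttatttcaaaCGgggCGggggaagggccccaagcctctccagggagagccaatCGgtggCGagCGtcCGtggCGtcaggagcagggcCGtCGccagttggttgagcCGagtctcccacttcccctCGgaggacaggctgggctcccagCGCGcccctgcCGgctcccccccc
Hoxa6, chr6:52208673-52208922, minus strand: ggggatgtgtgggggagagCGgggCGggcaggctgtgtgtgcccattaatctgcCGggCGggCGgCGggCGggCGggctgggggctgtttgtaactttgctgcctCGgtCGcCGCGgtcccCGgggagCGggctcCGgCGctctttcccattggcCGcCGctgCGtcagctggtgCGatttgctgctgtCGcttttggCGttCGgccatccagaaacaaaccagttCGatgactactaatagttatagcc
Msx1, chr5:37824586-37824835, minus strand: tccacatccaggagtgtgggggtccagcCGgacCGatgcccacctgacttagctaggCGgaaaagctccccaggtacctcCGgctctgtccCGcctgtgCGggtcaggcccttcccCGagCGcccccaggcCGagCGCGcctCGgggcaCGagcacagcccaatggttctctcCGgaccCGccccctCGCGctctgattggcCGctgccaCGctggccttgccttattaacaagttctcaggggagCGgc
Hoxa13, chr6:52260881-52261130, minus strand: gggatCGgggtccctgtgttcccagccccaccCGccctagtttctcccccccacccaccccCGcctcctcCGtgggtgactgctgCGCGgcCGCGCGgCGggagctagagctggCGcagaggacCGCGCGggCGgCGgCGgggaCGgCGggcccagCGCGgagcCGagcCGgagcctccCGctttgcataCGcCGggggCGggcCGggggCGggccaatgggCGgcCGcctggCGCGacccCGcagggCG
Barx1, chr13:48662786-48663035, plus strand: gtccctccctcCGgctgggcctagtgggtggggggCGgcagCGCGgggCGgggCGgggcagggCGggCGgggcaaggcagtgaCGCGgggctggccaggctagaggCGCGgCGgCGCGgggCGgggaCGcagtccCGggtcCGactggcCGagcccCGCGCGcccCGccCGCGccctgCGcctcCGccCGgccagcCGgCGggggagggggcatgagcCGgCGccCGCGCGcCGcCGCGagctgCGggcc

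Motif sites of Plagl1, a zinc finger factor that restrains the cell cycle, were about as frequent in the windows of the homeobox genes as in windows overall. Of the 37 windows 13 held a site (35.1%, exact 95% interval 20.2 to 52.5), against 32.9% of all windows. By class it was 7 of 17 windows of jaw and tooth genes (41.2%, 18.4 to 67.1) and 6 of 20 windows of other members (30%, 11.9 to 54.3). Both intervals held the share of all windows, so no difference was detectable at these numbers. With sites at or above the median score alone, the share was 10.8% (4 of 37) for all members and 17.6% for jaw and tooth genes, against 18.1% for all windows, which turns the direction for both. Hox genes, having no window, could hold no site, because the search was made in windows only. The 6 Dlx windows included 3 with a site, those of Dlx2, Dlx3 and Dlx4. The windows of Msx1, Msx2, Barx1, Pitx3, Dlx1, Dlx5 and Dlx6 held none.

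Of the 7 sites of jaw and tooth genes, 6 are printed on the motif strand, 5′ to 3′, with bases 4 to 9 of the motif, where its core lies, in capitals.
Dlx4, chr11:95146020-95146029, minus strand: cgtGGGGCCa
Msx3, chr7:140036637-140036646, minus strand: tgtGGGGCTc
Dlx2, chr2:71546525-71546534, plus strand: aatGAGGCTa
Dlx3, chr11:95120144-95120153, plus strand: agaGAGGCAc
Lhx6, chr2:36091503-36091512, minus strand: cgtGAGGCCg
Pax9, chr12:56695675-56695684, minus strand: aaaGAGGCTt

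They are listed by falling motif score, a log-odds value for the match. The site of Dlx4 scored 6.61, above 89.5% of all sites, and that of Msx3, in Tubgcp2, scored 6.32. Dlx2 scored 6.10, Dlx3 5.93, Lhx6 5.85 and Pax9 5.77, against a median of 5.94 and a range of 5.51 to 7.74 over all sites. Thus 3 of the 7 lay above the median. The base at position 5 was G in the sites of Dlx4 and Msx3 and A in those of Dlx2, Dlx3, Lhx6 and Pax9. Over all 5753 sites that base was G in 55.2% and A in 44.8%. The 10 bases of the Pax9 site occurred at 9 sites in all, and another pair of these, 1 on each strand, lay in a single window near Pbx2. The other members' sites scored from 5.58 (Irx5) to 6.20 (Lhx9), with Six2 at 5.63 and Meis3 at 5.65 and 5.90 in a single window.

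**Figure D5:**
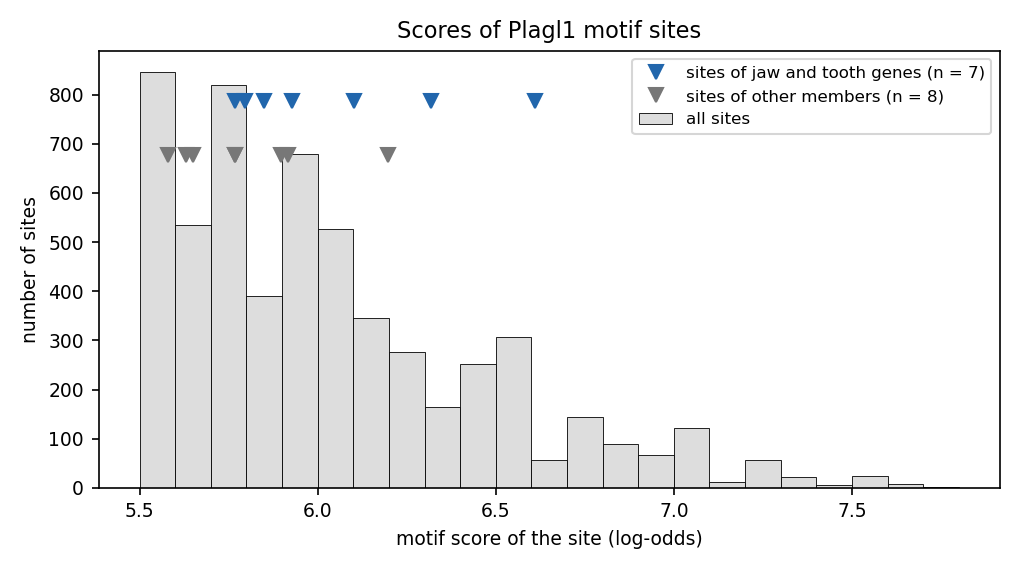
Motif scores (log-odds) of all 5753 sites as a histogram in steps of 0.1, with triangles at the 7 sites of jaw and tooth genes (blue) and the 8 sites of other members (grey). The highest triangle is the Dlx4 site at 6.61, and no triangle reaches the upper end at 7.74.

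The letters of the motif core were nevertheless present before Hox start sites. GGGGCC or GAGGCC, on either strand, was found in 8 of 24 Hox promoters (33.3%), 7 of 14 jaw and tooth promoters (50%) and 10 of 21 promoters of other members (47.6%), against 39.3% of all promoters. These cores cover 63.4% of the deposited sites, and on a given strand they cannot start at the same base. Among the Hox promoters with a core were those of Hoxa2, which patterns the second arch, Hoxa5, Hoxb1, Hoxc4, Hoxd1 and Hoxd13. A core is a match of letters and no measure of binding.

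The windows of the homeobox genes lay near windows overall in GC content and somewhat lower in CpG. Their median GC content was 65.2%, against 66.7% for all windows, and was 64.7% for jaw and tooth genes and 65.9% for other members. The median number of CpG per 100 steps between bases was 7, against 9 for all windows, and was 7 for jaw and tooth genes and 7.25 for other members. Among the windows of jaw and tooth genes it ran from 4 (Barx1 and Pax9 among them) to 13.5 (the outer Msx2 window).

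Other homeobox genes, listed for context, were sparsely covered. Of 14 further homeobox genes listed as trunk genes, 0 had a window at an end, against 46.6% of all protein-coding genes, and 3 (Cdx1, Evx1 and Meox1) had 1 inside or within 10 kb. That list was broad and also held En1, En2, Gbx2, Gsx1, Gsx2 and Pdx1, so its count does not describe the trunk alone. At an end, inside or within 10 kb, 59.5% of all protein-coding genes had a window. Of 9 further craniofacial homeobox genes 1 had a window at an end, Isl1. Shox2 was among those with a window inside or within 10 kb, while Alx1, Alx4, Gsc, Otx1 and Otx2 were among those with none. Among markers of cell types, 5 of 9 of dental mesenchyme and odontoblasts had a window at an end (Col1a1, Col1a2, Osr2, Sox9 and Sp7). The dentine matrix genes Dspp and Dmp1 had no window within 10 kb. A window at an end was also found for 1 of 6 markers of dental epithelium and 1 of 6 of immune cells. For endothelium it was 2 of 5 and for glia and neurons 3 of 5, against 46.6% of all protein-coding genes. Lists this small do not tell these cell types apart. The part of these cells in the windows of any homeobox gene was not tested.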

How the data were processed

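ATAC-seq regions from 3 libraries (1 Gli1-CreER;Arid1a fl/fl, 2 Arid1a fl/fl) were used as pooled tables. Per the submitters' processing notes, the genome was mm10 and the tools included Bowtie2 2.3.5 and MACS2 2.1.1. Per the file headers, a union peak list was searched by HOMER's annotatePeaks for the Plagl1 motif around each centre. The deposited GC value is the G and C fraction of a window, printed here as percent, and the deposited CpG value is a number per step between bases, printed per 100 steps. The score of each site is the deposited HOMER log-odds score, whose log base is not stated. Positions count from 1.

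Members were found by symbol in RefSeq's genes of GRCm38.p6, which is the assembly of mm10, leaving out mitochondrial genes. Windows were assigned by their midpoint to every gene within reach. All 5753 sites of the annotation matched the site list by coordinates. The site list gives no depth, so read depth behind windows is unknown. Promoters came from RefSeq start sites, which are not held for every gene. Exact Clopper-Pearson 95% intervals were used. A count of 0 allows up to 3 counts. No test was made, since genes are not replicates. The naming rule covered every member, with and without a window; some genes are not reported here by name. The members, lists and alternatives were chosen with earlier results of these data known. The assignment of windows was checked on planted positions. Python 3.11.15, numpy 2.4.6, pandas 2.3.3, scipy 1.17.1 and matplotlib 3.10.9 were used.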

Additional observations from a re-analysis of the deposited data

How the results depend on the processing

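Under the alternatives tried (500 bp or 3 kb in place of 1 kb, any base of the window in place of its midpoint, nearest gene only, and start sites, the last chosen after seeing the data) the share of Hox genes with a window at a gene end was 0% in each, and that of jaw and tooth genes ran from 47.4% to 57.9%. It was 50% (8 of 16) for a narrow jaw and tooth list without Msx3, Pitx3 and Barx2, and 43.2% for all members that are not Hox genes. Over all protein-coding genes the share was 42.7% at 500 bp, 51.6% at 3 kb, 40.6% by nearest gene and 50.7% with start sites, because these rules reach fewer or more genes by construction. The Hox share could not move under any alternative, since the closest Hox gene lay 45294 bp from a window. Its 0% throughout is thus no check on the processing. With sites at or above the median score alone, the share of windows with a site was 17.6% for jaw and tooth genes, 10.8% for all members and 18.1% for all windows, so the direction against all windows turned for the jaw and tooth genes and for all members. The share of Hox windows with a site and their GC content could not be given, because there was no Hox window. No paired analysis was possible because the tables hold no value per library, and for the same reason no library could be left out. The depth behind the windows is unknown, so an absent window does not show closed chromatin.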
